A study of Homo sapiens with 8 samples.

Results

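Aminoacyl-tRNA synthetases are the enzymes that load each transfer RNA with its amino acid, and 36 of their genes are described here, matched by symbol among the 19718 coding genes of the table. They comprise 20 cytosolic enzymes and 16 mitochondrial ones, the mitochondrial class being the symbols that end in 2. All 36 passed the filter on low values. The measurements are RNA sequencing of HEL92.1.7, a line of secondary acute myeloid leukaemia, and of a persister-resistant line derived from it, HEL OTX P/R, in 4 groups of 2 libraries. The groups are P/R cells given 1000 nM OTX015 for 8 hours, P/R cells left untreated, parental cells given the same dose for the same time, and parental cells left untreated. OTX015 is a small-molecule inhibitor of the BET bromodomain proteins, which bind acetylated histones and promote transcription. Every group grew in RPMI1640 medium with 20% fetal bovine serum. The sources used here do not say whether the P/R line is a clone. The labels call the replicates biologic and the treatments independent.

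Charging occurs in 2 compartments. The cytosolic enzymes serve the ribosomes that translate nuclear messages, and the mitochondrial enzymes, also encoded in the nucleus, serve the small set of proteins made inside mitochondria. Several cytosolic synthetases sit together in the multisynthetase complex, held by the scaffold proteins AIMP1, AIMP2 and EEF1E1, while the others act free of it. Transcription of many cytosolic synthetase genes is known to be raised by the factor ATF4 when amino acids run short, through a C/EBP-ATF response element near the start of the gene. KARS and GARS each encode both a cytosolic and a mitochondrial form of their enzyme.

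Values are FPKM (fragments per kilobase of transcript, corrected for library size), quantile normalized across libraries by the authors, so they are relative levels, and the sequencing depth is unknown. A change in the share of cells expressing a gene and a change in RNA per cell cannot be told apart in such bulk values. Replicates correlated at r = 0.996 to 0.997 across genes, and libraries of different groups at 0.959 to 0.985. All 12 erythroid and megakaryocytic markers, the lineages HEL cells are known for, passed the filter, and their sum was 11766 to 13971 FPKM per library. B cell and fibroblast markers summed to at most 0.764 FPKM, with MS4A1, CD22 and COL1A2 at 0. CD4 was the only T cell marker that passed the filter, at up to 16.9 FPKM, with CD3D and CD3G at 0. HEXIM1, a gene known to rise under BET inhibition, changed by 1.45 ± 0.054 in P/R cells and 1.69 ± 0.054 in parental cells (SE; adjusted p = 4.14e-07 and 1.54e-07) on the log2(FPKM + 1) scale. Adjusted p-values are from limma, corrected by Benjamini-Hochberg over the 11255 genes tested, and calls use a threshold of 0.05.

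Most cytosolic synthetase messages were lower with OTX015 in both lines, by small amounts, and few mitochondrial ones were. In P/R cells 14 of 20 cytosolic genes fell, 3 rose (SARS, HARS and QARS) and 3 did not pass the test. In parental cells 14 fell, 2 rose (SARS and QARS) and 4 did not pass. The 14 that fell were the same genes in both lines: AARS, CARS, DARS, EPRS, FARSA, FARSB, IARS, KARS, LARS, MARS, NARS, VARS, WARS and YARS. Of all genes tested, 18.2% were called lower in both lines and 18.6% higher in both. Of the 16 mitochondrial genes, 3 fell in P/R cells and 5 in parental cells, and none rose. Over all genes tested, 44.3% were called in P/R cells (21.8% lower and 22.5% higher), and 50.4% in parental cells (24.7% lower and 25.7% higher). The cytosolic share of lower calls was well above that background, and the mitochondrial share was close to it. The background was not matched for level. By level, the cytosolic median stood at percentile 88.0 of the genes tested and the mitochondrial median at percentile 57.4. The part of level in these shares was not tested. The median change of the cytosolic class was -0.22 in P/R cells and -0.25 in parental cells, that of the mitochondrial class -0.046 and -0.058, and that of all genes tested 0.015 and 0.021. The group means compared in the 2 lines share no library. The spread of each gene was estimated from all 8 libraries, so the calls in the 2 lines are not independent. Replicates of the treated and untreated groups were apart for 17 of 20 cytosolic and 10 of 16 mitochondrial genes in P/R cells, against 72.7% of all genes tested, and for 19 and 13 in parental cells, against 75.6%. Without parental OTX015 replicate 2 the number of synthetases called in parental cells was 13 in place of 21.

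**Figure D1:**
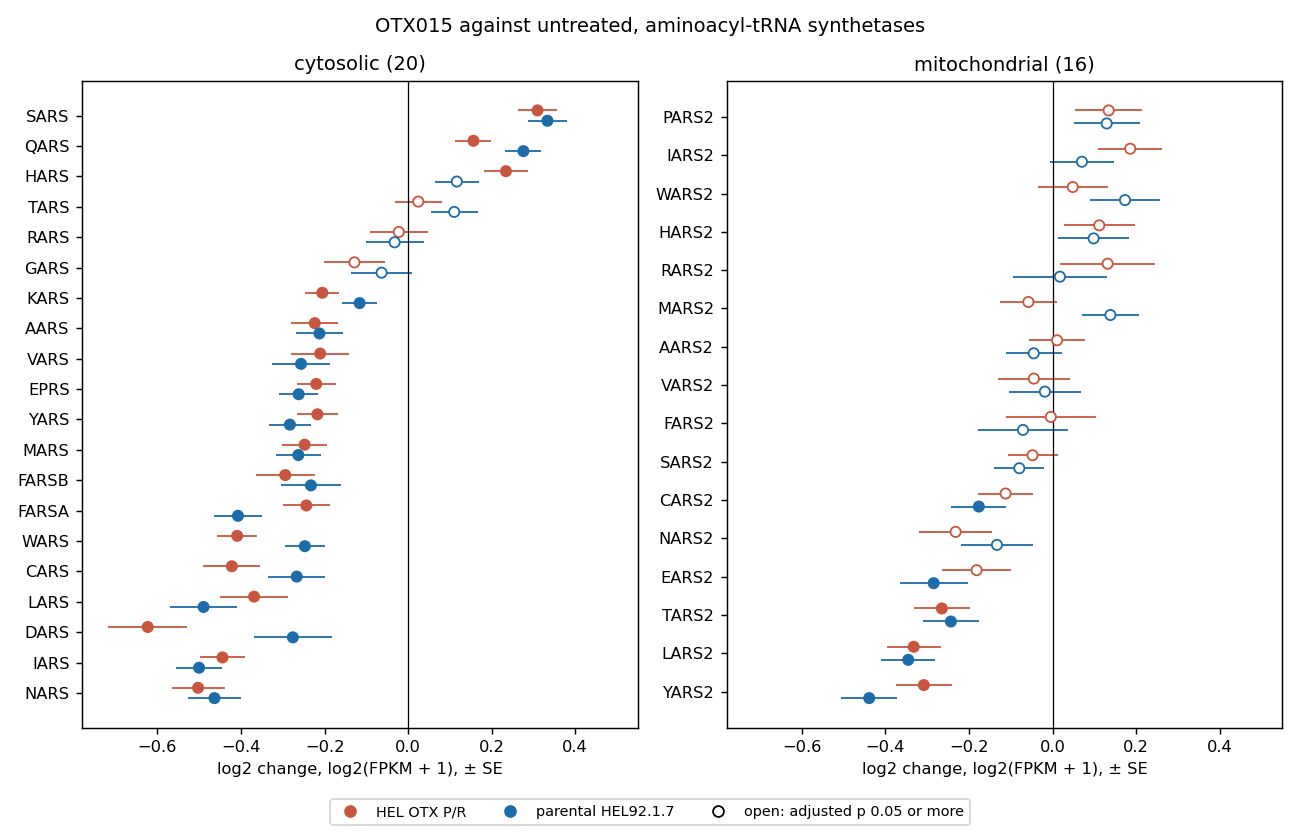
Change of each synthetase under OTX015 against untreated cells of the same line, as log2 change on the log2(FPKM + 1) scale (x axis) with bars of 1 standard error, for 20 cytosolic (left) and 16 mitochondrial genes (right). Filled points passed an adjusted p of 0.05. Of the cytosolic genes, 14 lie to the left of 0 with filled points in both lines, and 3 of the mitochondrial genes (YARS2, LARS2, TARS2) do so.

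The sequences around the start sites of these genes were searched because so many cytosolic members moved together. RefSeq windows of 250 bases before to 50 bases after the start (build GRCh38.p14) were matched for 30 of the 36 members, 16 cytosolic and 14 mitochondrial. The C/EBP-ATF response element was searched as TGATGNAA on both strands. It was present in 7 of 16 cytosolic members (AARS, CARS, GARS, IARS, MARS, NARS and TARS) and in 1 of 14 mitochondrial members (YARS2). The share of 9149 tested genes was 2.59%. Some genes have more than 1 window, and a gene counts if any of its windows holds the element. By window the counts were 7 of 21 cytosolic and 1 of 18 mitochondrial. The shares were 1.94% of 13284 windows of tested genes and 3.62% of all 35116 windows. CARS, GARS and TARS each have a further window without the element. The narrower form TGATGCAA, which is contained in TGATGNAA, was present in 6 cytosolic members and in no mitochondrial member, against 0.721% of tested genes. In 6 of the 8 windows that hold the element its first base lay within 50 bases of the start, and in AARS and YARS2 it lay farther upstream, at -187 and -197.

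The windows below run from 70 bases before to 50 bases after the start, 5′ to 3′ on the strand of the gene, with the element in capitals. The first 4 belong to genes that fell in both lines, the next 2 (TARS and GARS) to genes that did not pass the test in either, and the last 2 (SARS and QARS) to genes that rose in both and have no such element in their windows. They are IARS at chr9:92293648-92293767 (minus strand), NARS at chr18:57621787-57621906 (minus strand), CARS at chr11:3057374-3057493 (minus strand), MARS at chr12:57487998-57488117 (plus strand), TARS at chr5:33440895-33441014 (plus strand), GARS at chr7:30594808-30594927 (plus strand), SARS at chr1:109213848-109213967 (plus strand) and QARS at chr3:49104708-49104827 (minus strand).
IARS: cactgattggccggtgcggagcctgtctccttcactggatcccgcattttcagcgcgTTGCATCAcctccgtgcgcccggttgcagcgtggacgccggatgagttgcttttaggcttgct
NARS: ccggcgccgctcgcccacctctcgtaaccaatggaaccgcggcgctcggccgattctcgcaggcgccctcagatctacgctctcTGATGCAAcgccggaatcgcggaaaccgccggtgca
CARS: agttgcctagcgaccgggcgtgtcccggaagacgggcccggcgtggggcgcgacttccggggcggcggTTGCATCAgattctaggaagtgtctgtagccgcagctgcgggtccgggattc
MARS: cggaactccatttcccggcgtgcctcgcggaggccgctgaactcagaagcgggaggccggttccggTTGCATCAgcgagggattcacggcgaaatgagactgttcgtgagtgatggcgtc
TARS: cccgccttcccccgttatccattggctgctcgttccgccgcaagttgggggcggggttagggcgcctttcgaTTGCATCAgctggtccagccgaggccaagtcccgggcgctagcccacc
GARS: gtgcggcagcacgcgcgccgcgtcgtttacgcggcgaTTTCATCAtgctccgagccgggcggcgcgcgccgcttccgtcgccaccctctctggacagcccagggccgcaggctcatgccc
SARS: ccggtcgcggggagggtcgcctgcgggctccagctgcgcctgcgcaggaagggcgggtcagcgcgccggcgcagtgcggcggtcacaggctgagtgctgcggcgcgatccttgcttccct
QARS: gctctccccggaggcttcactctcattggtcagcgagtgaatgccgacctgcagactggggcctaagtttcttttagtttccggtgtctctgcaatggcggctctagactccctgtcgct
CARS, IARS, MARS and TARS carry the same 8 letters, TTGCATCA, which is TGATGCAA read on the other strand, and NARS carries TGATGCAA itself. GARS has a variant, TTTCATCA. Among the 7 cytosolic members with the element, 5 fell in both lines and 2 were called in neither. Among the 9 with a window but without the element, 5 fell in both lines. The cytosolic members with no matched window (DARS, LARS, VARS and YARS) all fell in both lines, and whether they carry the element was not tested. These matches describe letters and say nothing of binding.

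Other motifs common near start sites were counted in the same windows. The ETS core CCGGAAG was found in 9 of 16 cytosolic and 7 of 14 mitochondrial members, against 24.1% of tested genes. The E-box CACGTG, which MYC binds, was found in 1 cytosolic member (IARS) and 3 mitochondrial members (CARS2, EARS2 and MARS2), against 13.1% of tested genes. The cyclic AMP response element TGACGTCA was found in no member of either class, against 3.97% of tested genes. The windows of HARS and HARS2 share 184 bases on opposite strands, since the genes start back to back.

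Within the multisynthetase complex, 6 of 8 enzymes fell in both lines (DARS, EPRS, IARS, KARS, LARS and MARS), against 18.2% of all genes tested. QARS rose in both, and RARS did not pass in either. IARS had 44.6 and 42.0 FPKM in treated P/R cells, against 60.0 and 58.4 FPKM in untreated ones, and 43.5 and 44.2 FPKM in treated parental cells, against 61.0 and 64.0 FPKM in untreated ones. IARS, the isoleucine enzyme, changed by -0.44 ± 0.054 in P/R cells and -0.50 ± 0.054 in parental cells (SE; adjusted p = 0.00021 and 7.64e-05). All 4 treated libraries lay below all 4 untreated ones. LARS had 46.8 and 48.4 FPKM in treated P/R cells, against 66.6 and 57.2 FPKM in untreated ones, and 39.2 and 44.0 FPKM in treated parental cells, against 57.4 and 60.1 FPKM in untreated ones. LARS, the leucine enzyme, changed by -0.37 ± 0.081 in P/R cells and -0.49 ± 0.081 in parental cells (SE; adjusted p = 0.00521 and 0.000919), again with treated and untreated libraries apart.

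DARS had 34.9 and 36.8 FPKM in treated P/R cells, against 53.2 and 58.5 FPKM in untreated ones, and 45.3 and 47.8 FPKM in treated parental cells, against 50.8 and 62.9 FPKM in untreated ones. The aspartate enzyme DARS changed by -0.62 ± 0.094 in P/R cells and -0.28 ± 0.094 in parental cells (SE; adjusted p = 0.000705 and 0.0348). The treated P/R libraries stood lowest of the 4 groups, and the untreated parental replicates were the farthest apart. EPRS had 60.9 and 61.5 FPKM in treated P/R cells, against 70.2 and 72.7 FPKM in untreated ones, and 63.5 and 62.0 FPKM in treated parental cells, against 75.1 and 75.7 FPKM in untreated ones. EPRS, which charges both glutamate and proline, changed by -0.22 ± 0.046 in P/R cells and -0.26 ± 0.046 in parental cells (SE; adjusted p = 0.00425 and 0.00138), with no overlap between treated and untreated libraries. KARS had 107 and 111 FPKM in treated P/R cells, against 125 and 126 FPKM in untreated ones, and 125 and 123 FPKM in treated parental cells, against 134 and 135 FPKM in untreated ones. KARS, the lysine enzyme, changed by -0.21 ± 0.041 in P/R cells and -0.12 ± 0.041 in parental cells (SE; adjusted p = 0.00329 and 0.0403), the smallest fall of the complex in parental cells.

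QARS, the glutamine enzyme, had the highest level of all 36 genes and moved the other way. QARS had 283 and 268 FPKM in treated P/R cells, against 248 and 245 FPKM in untreated ones, and 280.3 and 274 FPKM in treated parental cells, against 234 and 224 FPKM in untreated ones. Its change was 0.16 ± 0.043 in P/R cells and 0.28 ± 0.043 in parental cells (SE; adjusted p = 0.0162 and 0.000689), and each treated library was above each untreated one. RARS had 33.6 and 37.4 FPKM in treated P/R cells, against 37.02 and 35.0 FPKM in untreated ones, and 35.8 and 33.4 FPKM in treated parental cells, against 36.1 and 34.7 FPKM in untreated ones. RARS, the arginine enzyme, changed by -0.022 ± 0.069 in P/R cells and -0.032 ± 0.069 in parental cells (SE; adjusted p = 0.817 and 0.719), and its treated and untreated values overlapped in both lines. MARS, the methionine enzyme, changed by -0.25 ± 0.053 in P/R cells and -0.26 ± 0.053 in parental cells (SE; adjusted p = 0.00472 and 0.00291). Of the annotated MARS exon bases, 7.38% are shared with ARHGAP9 and 5.05% with DDIT3, both on the opposite strand, and the sources used here do not say whether the libraries kept strand. ARHGAP9 had 17.0 and 13.7 FPKM in treated P/R cells, against 45.1 and 44.6 FPKM in untreated ones, and 8.21 and 9.90 FPKM in treated parental cells, against 35.9 and 32.3 FPKM in untreated ones. ARHGAP9 changed by -1.50 ± 0.11 in P/R cells and -1.81 ± 0.11 in parental cells (SE; adjusted p = 1.53e-05 and 3.6e-06). DDIT3 changed by -0.78 in P/R cells and -0.84 in parental cells, and the part of both genes in the MARS values was not tested.

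Some of these calls rested on the filter or on single libraries. With no filter, LARS did not pass in P/R cells (limma adjusted p = 0.0559), nor DARS in parental cells (0.173). DARS in parental cells did not pass without untreated replicate 2 (adjusted p = 0.251), OTX015 replicate 1 (0.144) or OTX015 replicate 2 (0.0698) of that line. KARS in parental cells did not pass without any 1 of the 4 parental libraries (adjusted p = 0.0765 to 0.167) or without either untreated P/R library (0.0731 and 0.073). QARS in P/R cells did not pass without untreated replicate 1 (adjusted p = 0.0651), untreated replicate 2 (0.0918) or OTX015 replicate 1 (0.082) of that line.

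The scaffold proteins of the complex split in direction. AIMP1 had 13.2 and 16.9 FPKM in treated P/R cells, against 21.3 and 23.0 FPKM in untreated ones, and 13.2 and 11.3 FPKM in treated parental cells, against 20.6 and 23.6 FPKM in untreated ones. AIMP1 fell in both lines, with changes of -0.54 ± 0.12 in P/R cells and -0.80 ± 0.12 in parental cells (SE; adjusted p = 0.00617 and 0.000563). EEF1E1 fell too, by -0.36 ± 0.094 in P/R cells and -0.49 ± 0.094 in parental cells (SE; adjusted p = 0.013 and 0.00214), and AIMP2 rose slightly, by 0.14 ± 0.052 in P/R cells and 0.16 ± 0.052 in parental cells (SE; adjusted p = 0.0493 and 0.0269).

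Outside the complex, 8 of 12 cytosolic enzymes fell in both lines, against 18.2% of all genes tested, and SARS was the one that rose in both. NARS had 58.3 and 58.9 FPKM in treated P/R cells, against 78.4 and 88.8 FPKM in untreated ones, and 60.5 and 63.2 FPKM in treated parental cells, against 83.8 and 87.5 FPKM in untreated ones. NARS, the asparagine enzyme, changed by -0.50 ± 0.063 in P/R cells and -0.46 ± 0.063 in parental cells (SE; adjusted p = 0.000256 and 0.000319). All treated libraries lay below all untreated ones. WARS had 68.2 and 66.0 FPKM in treated P/R cells, against 87.6 and 91.3 FPKM in untreated ones, and 75.1 and 77.9 FPKM in treated parental cells, against 91.8 and 90.2 FPKM in untreated ones. WARS, the tryptophan enzyme, changed by -0.41 ± 0.048 in P/R cells and -0.25 ± 0.048 in parental cells (SE; adjusted p = 0.000164 and 0.00227), and its treated P/R libraries were the lowest of the 8.

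FARSA had 134 and 120.5 FPKM in treated P/R cells, against 149 and 153 FPKM in untreated ones, and 127 and 128 FPKM in treated parental cells, against 175 and 165 FPKM in untreated ones. FARSA, the catalytic subunit of the phenylalanine enzyme, changed by -0.24 ± 0.057 in P/R cells and -0.41 ± 0.057 in parental cells (SE; adjusted p = 0.00706 and 0.000345). FARSB had 30.4 and 33.6 FPKM in treated P/R cells, against 38.5 and 40.4 FPKM in untreated ones, and 42.6 and 40.2 FPKM in treated parental cells, against 46.7 and 51.0 FPKM in untreated ones. Its partner subunit FARSB changed by -0.29 ± 0.071 in P/R cells and -0.23 ± 0.071 in parental cells (SE; adjusted p = 0.00855 and 0.0221). Both subunits were lower with OTX015 in each line, without overlap. YARS had 185 and 186 FPKM in treated P/R cells, against 224 and 208 FPKM in untreated ones, and 188 and 186 FPKM in treated parental cells, against 236 and 220.2 FPKM in untreated ones. YARS, the tyrosine enzyme, changed by -0.22 ± 0.05 in P/R cells and -0.28 ± 0.05 in parental cells (SE; adjusted p = 0.00654 and 0.00133).

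CARS had 16.7 and 17.1 FPKM in treated P/R cells, against 22.6 and 23.4 FPKM in untreated ones, and 19.2 and 17.5 FPKM in treated parental cells, against 22.1 and 22.4 FPKM in untreated ones. CARS, the cysteine enzyme and the lowest of the cytosolic class on the FPKM scale, changed by -0.42 ± 0.068 in P/R cells and -0.27 ± 0.068 in parental cells (SE; adjusted p = 0.00101 and 0.00955). The remaining 2 falls were those of AARS, the alanine enzyme, by -0.22 ± 0.056 in P/R cells and -0.21 ± 0.056 in parental cells (SE; adjusted p = 0.0101 and 0.0111), and VARS, the valine enzyme, by -0.21 ± 0.069 in P/R cells and -0.26 ± 0.069 in parental cells (SE; adjusted p = 0.0327 and 0.0122).

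SARS had 104 and 109 FPKM in treated P/R cells, against 86.2 and 85.2 FPKM in untreated ones, and 105 and 104 FPKM in treated parental cells, against 84.7 and 81.0 FPKM in untreated ones. SARS, the serine enzyme, changed by 0.31 ± 0.046 in P/R cells and 0.33 ± 0.046 in parental cells (SE; adjusted p = 0.000664 and 0.000343). Its treated libraries were above its untreated ones in each line with little spread. HARS had 56.2 and 56.0 FPKM in treated P/R cells, against 47.996 and 47.1 FPKM in untreated ones, and 52.7 and 49.5 FPKM in treated parental cells, against 47.8 and 46.3 FPKM in untreated ones. HARS, the histidine enzyme, changed by 0.23 ± 0.052 in P/R cells and 0.12 ± 0.052 in parental cells (SE; adjusted p = 0.00587 and 0.0919), so that it passed the test in P/R cells and not in parental cells. The difference between the lines in that response had an adjusted p of 0.675.

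TARS had 118 and 127 FPKM in treated P/R cells, against 124 and 116 FPKM in untreated ones, and 118 and 114 FPKM in treated parental cells, against 104 and 111 FPKM in untreated ones. TARS, the threonine enzyme, changed by 0.024 ± 0.056 in P/R cells and 0.11 ± 0.056 in parental cells (SE; adjusted p = 0.753 and 0.13). Its P/R libraries overlapped between conditions. GARS had 102 and 94.9 FPKM in treated P/R cells, against 99.0 and 117 FPKM in untreated ones, and 100.4 and 103 FPKM in treated parental cells, against 107 and 106 FPKM in untreated ones. GARS, the glycine enzyme, changed by -0.13 ± 0.073 in P/R cells and -0.064 ± 0.073 in parental cells (SE; adjusted p = 0.183 and 0.493), with overlap in P/R cells. These 2 genes, with RARS, were the cytosolic members closest to 0.

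Several calls outside the complex also depended on the filter or on 1 library. With no filter, FARSA (limma adjusted p = 0.0509), FARSB (0.0521) and VARS (0.151) did not pass in P/R cells. FARSB (0.0861) and VARS (0.0851) did not pass in parental cells either. In parental cells, CARS did not pass without OTX015 replicate 2 (adjusted p = 0.0782), AARS without untreated replicate 1 (0.0545) or OTX015 replicate 2 (0.0726), VARS without untreated replicate 1 (0.0733) or OTX015 replicate 1 (0.0593), and FARSB without untreated replicate 2 (0.141) or OTX015 replicate 2 (0.126). In P/R cells, YARS did not pass without untreated replicate 1 (adjusted p = 0.0672), AARS without untreated replicate 1 (0.0881) or OTX015 replicate 2 (0.0605), FARSB without untreated replicate 2 (0.0614) or OTX015 replicate 1 (0.0594), and VARS without untreated replicate 1 (0.139), untreated replicate 2 (0.083) or OTX015 replicate 2 (0.184).

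**Figure D2:**
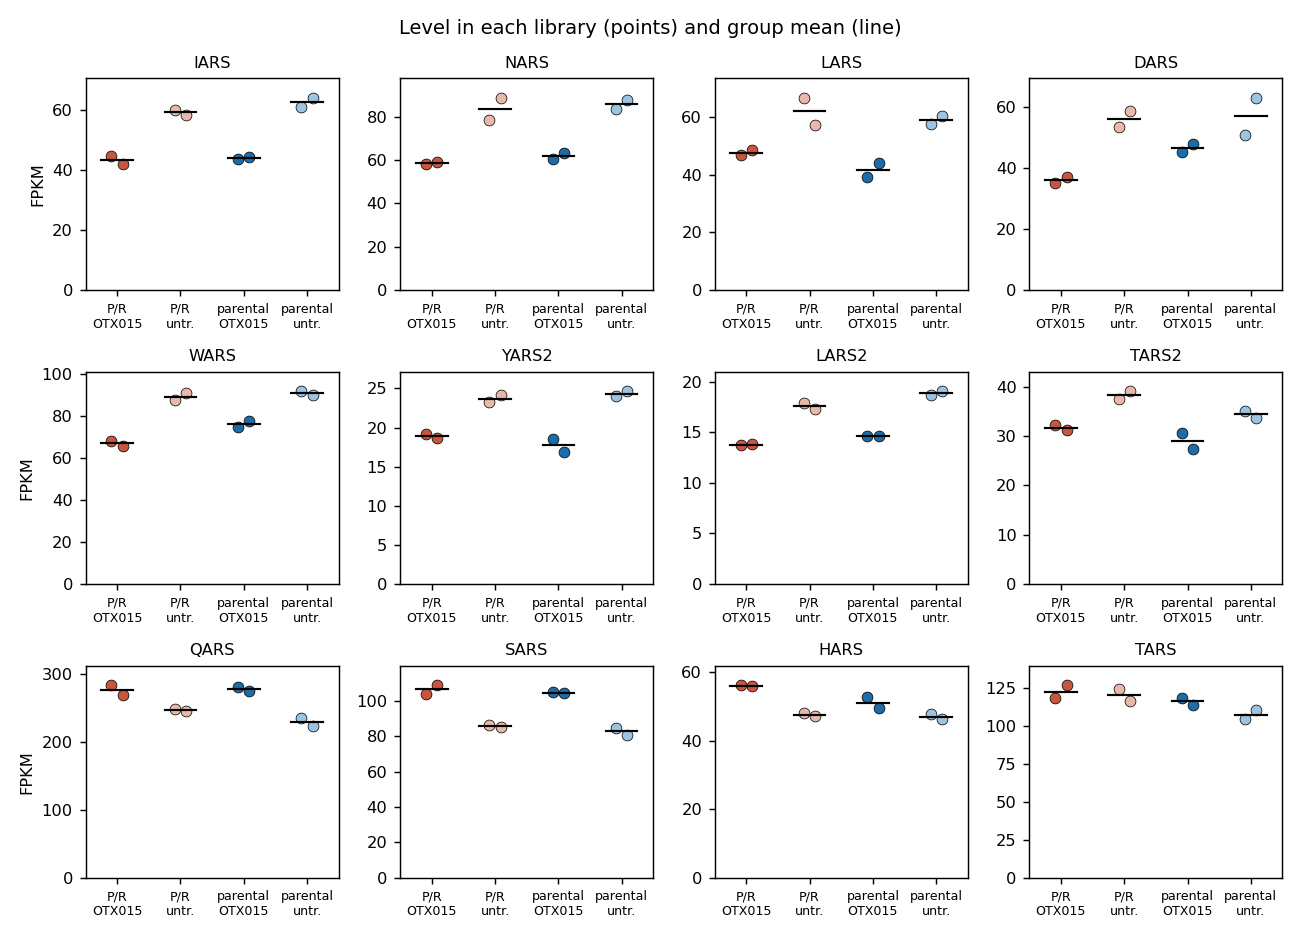
FPKM (y axis, from 0) of 12 synthetases in each of the 8 libraries (points) with the mean of each group of 2 (line), for treated and untreated P/R cells and treated and untreated parental cells. IARS, NARS, LARS, DARS, WARS, YARS2, LARS2 and TARS2 are lower in the treated libraries of each line, QARS and SARS are higher, HARS is higher with a wider gap in P/R cells, and TARS overlaps in P/R cells.

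In the mitochondrial class, 3 of 16 synthetase messages fell in both lines, close to the 18.2% of all genes tested. YARS2 had 19.2 and 18.7 FPKM in treated P/R cells, against 23.2 and 24.2 FPKM in untreated ones, and 18.5 and 16.9 FPKM in treated parental cells, against 24.1 and 24.6 FPKM in untreated ones. YARS2, the mitochondrial tyrosine enzyme, changed by -0.31 ± 0.068 in P/R cells and -0.44 ± 0.068 in parental cells (SE; adjusted p = 0.00525 and 0.000622). All treated libraries lay below all untreated ones. LARS2 had 13.7 and 13.8 FPKM in treated P/R cells, against 17.9 and 17.3 FPKM in untreated ones, and 14.6 and 14.6 FPKM in treated parental cells, against 18.7 and 19.0 FPKM in untreated ones. LARS2, the mitochondrial leucine enzyme, changed by -0.33 ± 0.065 in P/R cells and -0.35 ± 0.065 in parental cells (SE; adjusted p = 0.00285 and 0.00192), and its replicates were close in every group. TARS2 had 32.2 and 31.1 FPKM in treated P/R cells, against 37.5 and 39.01 FPKM in untreated ones, and 30.5 and 27.4 FPKM in treated parental cells, against 35.1 and 33.7 FPKM in untreated ones. TARS2, the mitochondrial threonine enzyme, changed by -0.27 ± 0.066 in P/R cells and -0.24 ± 0.066 in parental cells (SE; adjusted p = 0.0102 and 0.0132).

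EARS2 and CARS2 passed in parental cells only. EARS2 had 12.7 and 11.1 FPKM in treated P/R cells, against 13.1 and 14.0 FPKM in untreated ones, and 14.0 and 14.0 FPKM in treated parental cells, against 17.6 and 16.9 FPKM in untreated ones. EARS2, the mitochondrial glutamate enzyme, changed by -0.18 ± 0.082 in P/R cells and -0.28 ± 0.082 in parental cells (SE; adjusted p = 0.0997 and 0.0167). CARS2 had 36.4 and 36.6 FPKM in treated P/R cells, against 38.5 and 40.5 FPKM in untreated ones, and 34.9 and 37.3 FPKM in treated parental cells, against 43.0 and 38.96 FPKM in untreated ones. CARS2, the mitochondrial cysteine enzyme, changed by -0.11 ± 0.066 in P/R cells and -0.18 ± 0.066 in parental cells (SE; adjusted p = 0.195 and 0.0487). For both genes treated and untreated replicates were apart in each line, and the difference in response between the lines did not pass (adjusted p = 0.833 for EARS2 and 0.884 for CARS2).

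The other 11 mitochondrial genes passed in neither line. The 3 closest to 0 over both lines were AARS2, VARS2 and FARS2. AARS2 had 19.9 and 18.5 FPKM in treated P/R cells, against 19.5 and 18.6 FPKM in untreated ones, and 20.3 and 20.7 FPKM in treated parental cells, against 21.5 and 20.9 FPKM in untreated ones. VARS2 had 29.9 and 30.0 FPKM in treated P/R cells, against 31.1 and 30.7 FPKM in untreated ones, and 28.7 and 29.9 FPKM in treated parental cells, against 32.9 and 26.8 FPKM in untreated ones. FARS2 had 10.3 and 8.09 FPKM in treated P/R cells, against 8.83 and 9.48 FPKM in untreated ones, and 9.58 and 10.2 FPKM in treated parental cells, against 10.8 and 10.1 FPKM in untreated ones. Their treated and untreated values lay within a few FPKM of each other, and those of FARS2 overlapped in both lines. Changes of the remaining 8 (HARS2, IARS2, MARS2, NARS2, PARS2, RARS2, SARS2 and WARS2) ran from -0.23 for NARS2 to 0.19 for IARS2 in P/R cells, and from -0.13 for NARS2 to 0.17 for WARS2 in parental cells.

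Read overlap limits a few of these values. Of the annotated exon bases of SARS2, 46.2% are shared with another coding gene on the same strand, as are 22.0% of VARS2 with GTF2H4, and 11.7% of HARS2 are shared with HARS on the opposite strand. SARS2 also shares 10.8% with MRPS12 on the opposite strand and HARS2 4.07% with ZMAT2 on its own, and HARS, KARS, WARS, YARS, AARS2, CARS2 and EARS2 share 2.81% to 6.46% with a coding gene on the opposite strand. The part of these overlaps in the values was not tested. With no filter, CARS2 did not pass in parental cells (limma adjusted p = 0.111). Single libraries mattered here as well. In parental cells, TARS2 did not pass without untreated replicate 1 (adjusted p = 0.0714) or OTX015 replicate 2 (0.106), EARS2 without untreated replicate 1 (0.0799), OTX015 replicate 1 (0.0654) or OTX015 replicate 2 (0.0644), and CARS2 without any 1 of 7 libraries, all but parental untreated replicate 2 (0.0577 to 0.273). In P/R cells, TARS2 did not pass without untreated replicate 2 (adjusted p = 0.0704) or OTX015 replicate 2 (0.052).

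Set against each other, the cytosolic class was expressed at higher levels and lost more of its sum. The 20 cytosolic genes had means over all libraries of 20.1 (CARS) to 257 FPKM (QARS), with a median of 79.5, and the 16 mitochondrial genes 9.64 (WARS2) to 56.7 FPKM (SARS2), with a median of 18.5. The cytosolic sum was 1799.9 and 1777 FPKM in treated P/R cells, against 1986 and 1982 FPKM in untreated ones, and 1833 and 1817 FPKM in treated parental cells, against 2022 and 1994 FPKM in untreated ones. The mitochondrial sum was 361 and 347 FPKM in treated P/R cells, against 369 and 375 FPKM in untreated ones, and 346 and 342 FPKM in treated parental cells, against 374 and 362 FPKM in untreated ones. Both sums were lower in every treated library than in any untreated library of its line.

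The ratio of the cytosolic to the mitochondrial sum was 4.98 and 5.12 in treated P/R cells, against 5.39 and 5.29 in untreated ones, and 5.30 and 5.31 in treated parental cells, against 5.41 and 5.51 in untreated ones. It was lower with OTX015 in each line without overlap, but 2 libraries against 2 cannot give an exact permutation p below 0.333. Standard errors of the change were 0.041 to 0.094 for cytosolic genes (median 0.056) and 0.06 to 0.113 for mitochondrial genes (median 0.078), so that a given change was easier to call in the cytosolic class.

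**Figure D3:**
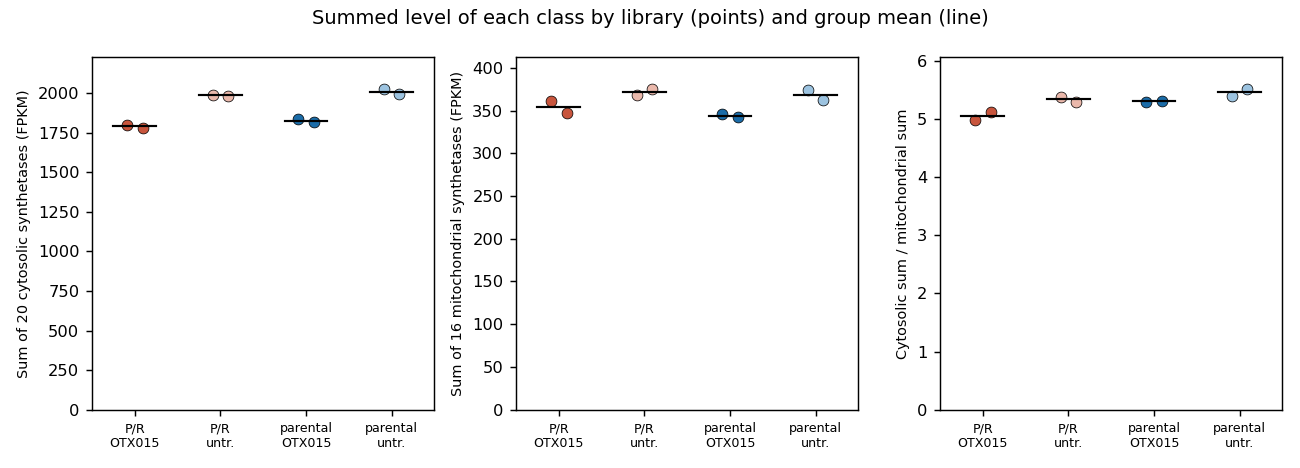
Summed FPKM of the 20 cytosolic (left) and 16 mitochondrial synthetases (middle), and the ratio of the sums (right), in each library (points) with group means (lines), all axes from 0. In each line both sums and the ratio are lower in the treated libraries.

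Enzymes for the same amino acid could be paired across compartments in 17 ways. These pairs are not all separate, since FARS2 is set against both FARSA and FARSB, and EPRS against both EARS2 and PARS2. The cytosolic partner had the higher mean FPKM in 16. The exception was CARS, at 0.526 times the level of CARS2, and the widest ratio was that of FARSA to FARS2, at 14.9. The cytosolic partner fell in both lines while the mitochondrial one passed in neither in 9 pairs, as in IARS and IARS2. NARS and NARS2 are another such pair, but NARS2 was near the threshold in P/R cells (-0.23, limma adjusted p = 0.0552). Treated replicates of NARS2 lay below untreated ones in each line. Both partners fell in both lines in 2 pairs, LARS with LARS2 and YARS with YARS2. Threonine was the 1 pair in which the mitochondrial enzyme fell in both lines and the cytosolic one passed in neither.

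Between the lines the synthetases differed little. Untreated, 3 of 36 differed in P/R against parental cells, while 23.5% of all genes tested did. FARSB had 38.5 and 40.4 FPKM in untreated P/R cells, against 46.7 and 51.0 FPKM in untreated parental cells, a difference of -0.30 ± 0.071 (SE, adjusted p = 0.0135). EARS2 had 13.1 and 14.0 FPKM in untreated P/R cells, against 17.6 and 16.9 FPKM in untreated parental cells, a difference of -0.33 ± 0.082 (SE, adjusted p = 0.0182). WARS2 had 11.0 and 10.2 FPKM in untreated P/R cells, against 7.65 and 8.13 FPKM in untreated parental cells, a difference of 0.39 ± 0.084 (SE, adjusted p = 0.00898). WARS2, the mitochondrial tryptophan enzyme, was thus higher in P/R cells and the other 2 were lower.

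Under OTX015, 6 of 36 differed, against 24.4% of all genes tested. FARSB had 30.4 and 33.6 FPKM in treated P/R cells, against 42.6 and 40.2 FPKM in treated parental cells, a difference of -0.36 ± 0.071 (SE, adjusted p = 0.0052). KARS had 107 and 111 FPKM in treated P/R cells, against 125 and 123 FPKM in treated parental cells, a difference of -0.18 ± 0.041 (SE, adjusted p = 0.00995). WARS had 68.2 and 66.0 FPKM in treated P/R cells, against 75.1 and 77.9 FPKM in treated parental cells, a difference of -0.19 ± 0.048 (SE, adjusted p = 0.0197). These 3 cytosolic enzymes were lower in P/R cells, as was DARS, by -0.37 ± 0.094 (SE, adjusted p = 0.0203). IARS2 had 44.5 and 38.4 FPKM in treated P/R cells, against 34.7 and 34.9 FPKM in treated parental cells, a difference of 0.24 ± 0.076 (SE, adjusted p = 0.0469). WARS2 had 10.6 and 11.5 FPKM in treated P/R cells, against 9.18 and 8.86 FPKM in treated parental cells, a difference of 0.26 ± 0.084 (SE, adjusted p = 0.0489). These 2 mitochondrial enzymes were higher in P/R cells.

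FARSB under OTX015 was the only one of these 9 differences between the lines that passed under all 16 alternatives tried. No untreated difference passed without P/R untreated replicate 1, where adjusted p was 0.0944 for FARSB, 0.122 for EARS2 and 0.0756 for WARS2. Without parental untreated replicate 1, EARS2 (adjusted p = 0.0948) and WARS2 (0.0564) did not pass, and FARSB did not without parental untreated replicate 2 (0.0909). Under OTX015, DARS did not pass without any 1 of the 4 treated libraries (0.0535 to 0.109), WARS without parental replicate 2 (0.112) or P/R replicate 2 (0.0783), and KARS without parental replicate 1 (0.066). IARS2 did not pass without 5 libraries in turn, both untreated P/R libraries, both treated parental libraries and treated P/R replicate 1 (adjusted p = 0.0691 to 0.249), and WARS2 did not pass without any 1 of the 8 libraries (0.057 to 0.198). The epithelial keratins KRT8 and KRT18 also separated the lines, with an epithelial marker sum of 109 to 110.4 FPKM in treated P/R cells, against 17.1 to 17.8 FPKM in treated parental cells, and 90.1 to 91.6 FPKM in untreated P/R cells, against 17.5 to 20.4 FPKM in untreated parental cells. These keratins were the only 2 of 5 epithelial markers that passed the filter. EPCAM and CDH1 did not pass it, and KRT5 was at 0 in every library. The part of the keratins in the synthetase differences was not tested.

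**Figure D4:**
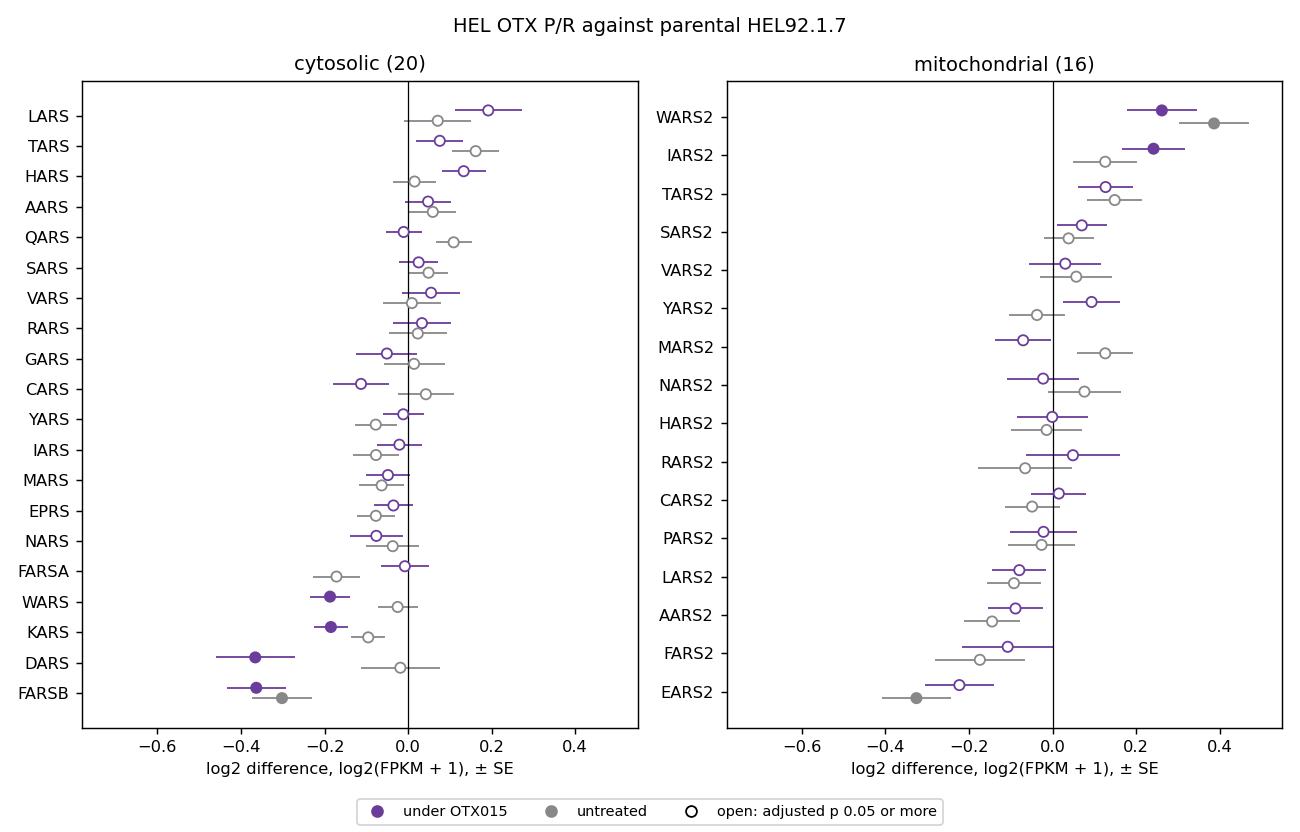
Difference of each synthetase between P/R and parental cells under OTX015 and untreated, as log2 difference on the log2(FPKM + 1) scale (x axis) with bars of 1 standard error. Filled points passed an adjusted p of 0.05, as did 6 genes under OTX015 and 3 untreated.

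The response to OTX015 was not shown to differ between the lines for any synthetase. No member passed the limma test of that difference, for which 0.08% of all genes were called, and 2 members, DARS and WARS, had an unadjusted p under 0.05. DARS had the smallest adjusted p, with a difference in response of -0.35 ± 0.13 (SE, adjusted p = 0.442), and WARS had -0.16 ± 0.068 (SE, adjusted p = 0.48). Both fell further in P/R than in parental cells.

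Genes that work beside the synthetases gave mixed counts, to be read against the shares of all genes tested, 21.8% lower and 22.5% higher in P/R cells, and 24.7% lower and 25.7% higher in parental cells. Among the mitochondrial partners, MTFMT, which formylates the initiator methionyl-tRNA, changed by 0.64 ± 0.12 in P/R cells and 0.43 ± 0.12 in parental cells (SE; adjusted p = 0.00211 and 0.0136), and QRSL1, a subunit of the amidotransferase that makes mitochondrial glutaminyl-tRNA, changed by -0.36 ± 0.093 in P/R cells and -0.44 ± 0.093 in parental cells (SE; adjusted p = 0.0124 and 0.00351). GATB, another subunit, changed by -0.24 ± 0.09 in P/R cells and -0.35 ± 0.09 in parental cells (SE; adjusted p = 0.054 and 0.0106), and GATC by -0.016 ± 0.096 in P/R cells and 0.10 ± 0.096 in parental cells (SE; adjusted p = 0.91 and 0.403). Of 9 elongation factor genes tested, 2 rose, 2 fell and 5 did not pass in each line, which is 22.2% in each direction and close to those shares. EEF2, the cytosolic translocase, changed by 0.34 ± 0.051 in P/R cells and 0.30 ± 0.051 in parental cells (SE; adjusted p = 0.00068 and 0.00108), EEF1D changed by 0.23 ± 0.04 in P/R cells and 0.23 ± 0.04 in parental cells (SE; adjusted p = 0.00156 and 0.00131), and the mitochondrial factor GFM1 changed by -0.19 ± 0.055 in P/R cells and -0.25 ± 0.055 in parental cells (SE; adjusted p = 0.0212 and 0.00457). GFM2, which recycles mitochondrial ribosomes, changed by -0.31 ± 0.11 in P/R cells and -0.27 ± 0.11 in parental cells (SE; adjusted p = 0.0445 and 0.0708).

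In the amino acid response list, genes known as ATF4 targets or as amino acid transporters and enzymes, 6 of 31 tested rose, 14 fell and 11 did not pass in P/R cells, and 9 rose, 14 fell and 8 did not pass in parental cells. The 45.2% that fell in each line lies above the shares of all genes, and the 19.4% that rose in P/R cells and 29% in parental cells lie near them. CBS had 3.33 and 1.78 FPKM in treated P/R cells, against 8.59 and 8.71 FPKM in untreated ones, and 3.84 and 5.69 FPKM in treated parental cells, against 14.2 and 16.3 FPKM in untreated ones. CBS, which makes cystathionine, and SLC6A9, a glycine transporter with changes of -0.91 ± 0.082 in P/R cells and -1.26 ± 0.082 in parental cells (SE; adjusted p = 4.04e-05 and 4.82e-06), fell in both lines. CTH, the next enzyme after CBS, changed by 0.68 ± 0.096 in P/R cells and 1.07 ± 0.096 in parental cells (SE; adjusted p = 0.000482 and 2.7e-05), and SESN2, a leucine sensor, changed by 0.75 ± 0.082 in P/R cells and 0.91 ± 0.082 in parental cells (SE; adjusted p = 0.000114 and 2.67e-05). ATF4 itself, named here for the element searched and after its values were seen, changed by -0.42 ± 0.036 in P/R cells and -0.26 ± 0.036 in parental cells (SE; adjusted p = 3.05e-05 and 0.000329).

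Of 8 genes for the eIF2 kinases and their partners, 2 rose, 1 fell and 5 did not pass in P/R cells, and 2 rose, 2 fell and 4 did not pass in parental cells, counts too small to set apart from the shares of all genes. PPP1R15A, which directs dephosphorylation of eIF2, changed by 0.71 ± 0.054 in P/R cells and 0.93 ± 0.054 in parental cells (SE; adjusted p = 1.59e-05 and 2.48e-06), EIF2AK1, the haem-regulated kinase, changed by 0.55 ± 0.08 in P/R cells and 0.45 ± 0.08 in parental cells (SE; adjusted p = 0.000577 and 0.00153), and EIF2AK3, the kinase of the endoplasmic reticulum, changed by -0.42 ± 0.14 in P/R cells and -0.42 ± 0.14 in parental cells (SE; adjusted p = 0.033 and 0.0298). GCN1, which helps activate the amino acid-sensing kinase, changed by 0.20 ± 0.088 in P/R cells and 0.11 ± 0.088 in parental cells (SE; adjusted p = 0.0911 and 0.343). Of 37 genes for RNA polymerase III and tRNA maturation, 5 rose, 8 fell and 24 did not pass in P/R cells, and 5 rose, 9 fell and 23 did not pass in parental cells. The shares that fell, 21.6% in P/R cells and 24.3% in parental cells, were close to those of all genes, and the 13.5% that rose in each line was below them. GTF3C6, a subunit of the factor that recognises tRNA gene promoters, changed by -0.70 ± 0.058 in P/R cells and -0.79 ± 0.058 in parental cells (SE; adjusted p = 2.46e-05 and 8.74e-06), while GTF3C1, another subunit, changed by 0.47 ± 0.11 in P/R cells and 0.40 ± 0.11 in parental cells (SE; adjusted p = 0.00629 and 0.0123). ELAC1, a tRNA 3′ end-processing enzyme, changed by 0.82 ± 0.11 in P/R cells and 0.76 ± 0.11 in parental cells (SE; adjusted p = 0.000456 and 0.000554), and POLR3G, a polymerase subunit, changed by -0.49 ± 0.083 in P/R cells and -0.39 ± 0.083 in parental cells (SE; adjusted p = 0.00136 and 0.00392).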

How the data were processed

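Total RNA, DNase-treated per the labels, was sequenced in 8 libraries. TopHat2 2.0, Cufflinks 2.0 and the build hg19 are named in the submitters' processing notes. The header of the deposited values states no unit, so FPKM is inferred from the values and Cufflinks. The authors quantile normalized them, as the values show. Sorted values of 2 libraries differed by at most 0.136% at a mean of 1 FPKM or more. Quantile normalization removes any global change in RNA, and the sources used here state neither depth, strand nor poly(A) selection.

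Values were transformed to log2(FPKM + 1), a scale that understates changes of low genes. The filter asked for 1 FPKM or more in 2 or more libraries. One limma 3.58.1 model in R 4.3.3 with 4 group means and a variance trend gave 5 two-sided contrasts, adjusted by Benjamini-Hochberg over 11255 genes (threshold 0.05), and was tested on simulated data. A call is an adjusted p under 0.05. Alternatives were other pseudocounts (0.1 and 5), dropping the filter, a filter at a mean of 5 FPKM, dropping the variance trend, centring on the median, fitting only the groups compared, a replicate block and omitting each library. Members with values in every library were the called ones with the smallest adjusted p in each class, and the 3 nearest 0; context genes were the 4 largest changes of each list. Members and lists were chosen with earlier results of these data known. Promoter windows are RefSeq's (GRCh38.p14), and exon overlaps come from GENCODE. Replicate numbers did not pair the libraries.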

Additional observations from a re-analysis of the deposited data

How the results depend on the processing

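Under OTX015 in P/R cells the number of synthetases called was 20 and stayed within 16 to 21 under every alternative, 16 to 20 when single libraries were left out. In parental cells it was 21, and 13 to 20 without single libraries, the lowest without OTX015 replicate 2. Calls kept under all 16 alternatives numbered 12 of 20 in P/R cells (CARS, DARS, EPRS, HARS, IARS, KARS, MARS, NARS, SARS, WARS, LARS2 and YARS2) and 12 of 21 in parental cells (EPRS, FARSA, IARS, LARS, MARS, NARS, QARS, SARS, WARS, YARS, LARS2 and YARS2). Between the lines, 3 calls in untreated cells became 0 to 4 without single libraries, and 6 calls under OTX015 became 3 with no filter, 3 with no variance trend, 3 with only the groups compared, and 2 to 5 without single libraries. The difference in response gave 0 calls under each alternative run; fitting only the groups compared uses all groups there and was not run. No called change reversed, and the cause of these shifts was not tested. The replicate block gave 20 calls for OTX015 in P/R cells, 19 in parental cells (KARS, adjusted p = 0.0591, and CARS2, 0.066, were lost), 3 between untreated lines, 4 under OTX015 (IARS2, 0.0654, and WARS2, 0.068, were lost) and 0 for the difference; same-numbered replicates deviated together at r = -0.12 to 0.104 across genes, so the numbers were not taken to pair libraries. Leaving out a library leaves a group of 1, assumed to vary like the others. Depth being unknown, counting error cannot be given, and errors were wider in the mitochondrial class.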

Other observations

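A synthetase gene outside the list was looked at after its values were seen. TARSL2 had 13.9 and 15.0 FPKM in treated P/R cells, against 8.56 and 8.37 FPKM in untreated ones, and 15.6 and 16.6 FPKM in treated parental cells, against 8.34 and 7.51 FPKM in untreated ones. TARSL2, which encodes a second cytosolic threonyl-tRNA synthetase, changed by 0.71 ± 0.083 in P/R cells and 0.94 ± 0.083 in parental cells (SE; adjusted p = 0.000167 and 2.45e-05) on the log2(FPKM + 1) scale, a rise larger than that of any of the 36 members, while TARS changed by 0.024 and 0.11. The difference in response between the lines did not pass for TARSL2, with an adjusted p of 0.565.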
